A study of Mus musculus with 6 samples.

Results

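Ciliated and basal cells of the mouse airway surface were compared gene by gene on 4 of the 6 arrays of the series, 2 of ciliated and 2 of basal cells. All 20315 genes of the authors' per-gene table entered the comparison, and the 2 club cell arrays served to estimate the spread. Every group came from C57BL/6 mice of unstated age and sex, with no treatment named in the labels, and the cells were isolated by flow cytometry from airway epithelium. Both gates required EpCAM, an epithelial adhesion protein. Basal cells were positive for the lectin GSIβ4, which binds terminal galactose, and ciliated cells were negative for it and positive for CD24. A ciliated cell was thus any EpCAM-bearing cell with that staining, and no tag of the cilium itself was used. The labels call the arrays biological replicates without naming animals, so p-values measure the spread between these samples, which may in part be technical, and the number of arrays limits the precision.

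Basal cells sit on the basement membrane, divide, and give rise to the other cells of the airway surface. Multiciliated cells no longer divide. They build many centrioles, dock them under the apical membrane as basal bodies, and grow from each a motile cilium whose core, the axoneme, is a ring of doublet microtubules with dynein motors. Their beat moves mucus out of the airway.

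Values are RMA log2 levels, so 1 unit is a 2-fold difference, and a level is compared only with the level of the same gene in another array. Differences are ciliated minus basal ± the standard error of the fit. A gene is called higher or lower where its limma p, adjusted over the whole table by Benjamini-Hochberg, is under 0.05. In bulk RNA, fewer cells of a type and less RNA per cell cannot be told apart. Genes named for gaps between replicate arrays are given without regard to a call. Other genes named below without a remark were called in all 6 fits that each left out 1 array. For the rest, the arrays that end the call, or how many of the 6 fits kept it, are given.

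The marker genes differed in the direction that the labels give. Their lists were chosen with earlier results of these data known, so the counts are no independent check. All 15 ciliated cell markers were called higher in ciliated cells, with a mean level of 6.36 and 6.71 in the basal arrays and of 11.64 and 11.65 in the ciliated arrays. Of 15 basal cell markers 14 were called lower, with mean levels of 10.84 and 11.01 in basal and of 7.76 and 8.07 in ciliated cells, and the 1 that did not pass was Lgals7. Ggta1, which encodes the enzyme that makes the galactose epitope bound by the lectin, had levels of 9.34 and 8.92 in basal and of 6.32 and 6.08 in ciliated cells, a difference of −2.93 ± 0.19. Cd24a, which encodes the CD24 antigen, had levels of 11.91 and 10.68 in basal and of 13.58 and 13.39 in ciliated cells. Its difference of 2.19 ± 0.37 (adjusted p = 0.0058) was not called without ciliated replicate 1 or without ciliated replicate 2. Epcam did not pass (adjusted p = 0.09). The cells were sorted by the lectin and by CD24, so Ggta1 and Cd24a are no check apart from the gates.

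The basal arrays differed from each other more than the ciliated arrays did. The median absolute difference between replicates was 0.237 in basal and 0.176 in ciliated cells, and 613 genes lay over 1 unit apart in basal against 100 in ciliated cells. Basal replicate 1 was higher for the endothelin gene Edn1 (10.99 against 7.80), the nuclear receptor gene Nr4a3 (10.05 against 6.80) and the matrix gene Thbs1 (13.29 against 10.34). Basal replicate 2 was higher for 2 secretory cell genes, Bpifb1 (10.57 against 7.33) and Muc5b (9.14 against 7.73). Between the ciliated arrays, replicate 2 was higher for Krt5 (9.28 against 7.91), Krt17 (9.54 against 7.40) and Dcn (8.03 against 6.64). Xist, the RNA that coats the inactive X chromosome of female cells, had levels of 5.63 and 5.68 in basal and of 7.07 and 9.46 in ciliated cells. The gap between the ciliated arrays was over 2 units, and both stood above both basal arrays. Sex is unstated, so a difference of sex between the groups cannot be told apart from one of cell type. H2-Ea-ps, an MHC class II gene that is a pseudogene in the labelled strain, stood at 8.83 in basal replicate 1 and at 5.51, 5.51 and 5.62 in the other 3 arrays. The part of these gaps in the results was not tested, and counts that moved by over 1.5 times without an array are given with it.

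In all, 3570 genes (17.6% of those tested) were called, 1888 higher in ciliated cells (9.29%) and 1682 lower (8.28%). Of these, 1071 higher and 636 lower genes were called in every fit that left out 1 array, 8.4% of all genes together. The arrays of the 2 groups did not overlap in 10776 of the 20315 genes (53%), so a lack of overlap was common. The counts of calls in both directions were close, but the sizes were not. The median called difference was 1.45 among higher and −1.11 among lower genes, and the median of all genes was −0.02. At least 16-fold differences were seen in 170 higher and 14 lower genes, and at least 64-fold differences in 20 higher and 0 lower genes. Without ciliated replicate 2 the calls were 1170 higher and 737 lower, and without ciliated replicate 1 they were 1300 higher and 896 lower.

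**Figure D1:**
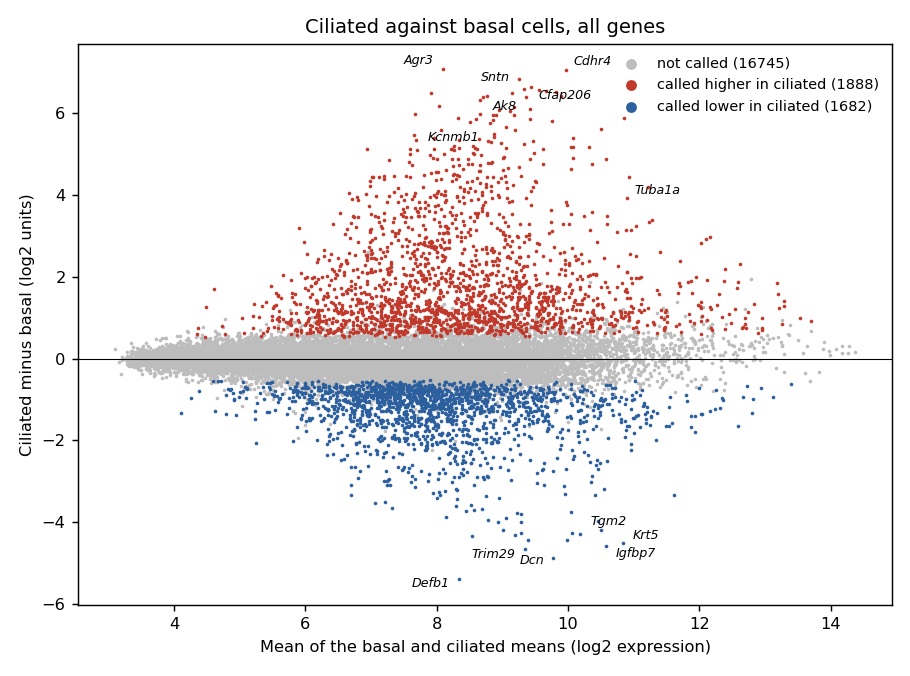
Each point is 1 gene, with its mean log2 level over both cell types on the horizontal axis and the log2 difference, ciliated minus basal, on the vertical axis, in red for the 1888 genes called higher and in blue for the 1682 called lower. The cloud above 0 reaches past 6 units, and below 0 a single gene, Defb1, lies beyond −5.

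Several of the largest differences were in genes outside the axoneme. Agr3, which encodes a protein disulphide isomerase of the endoplasmic reticulum, had levels of 4.07 and 5.07 in basal and of 11.83 and 11.42 in ciliated cells, a difference of 7.06 ± 0.32. Aoc1, which encodes the diamine oxidase that breaks down histamine and putrescine, had levels of 5.79 and 6.29 in basal and of 12.77 and 12.46 in ciliated cells. The ciliated arrays of both genes lay more than 6 units above the basal arrays, with no overlap. Tm4sf1, a membrane protein of the tetraspanin-like L6 family, had levels of 6.79 and 6.34 in basal and of 12.92 and 13.23 in ciliated cells. Cdhr3, a cadherin-related protein known in humans as the receptor of rhinovirus C, had levels of 5.92 and 6.86 against 13.02 and 12.84. Among membrane channels and carriers, Kcnmb1, the regulatory beta subunit of the large-conductance calcium-activated potassium channel, had levels of 5.83 and 6.41 in basal and of 11.51 and 11.38 in ciliated cells. Slc23a1, a sodium-dependent vitamin C transporter, had levels of 6.53 and 6.34 against 11.25 and 11.17. The 5 named differences after that of Agr3 were 6.57 ± 0.21 for Aoc1, 6.51 ± 0.23 for Tm4sf1, 6.54 ± 0.29 for Cdhr3, 5.32 ± 0.22 for Kcnmb1 and 4.77 ± 0.15 for Slc23a1.

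**Figure D2:**
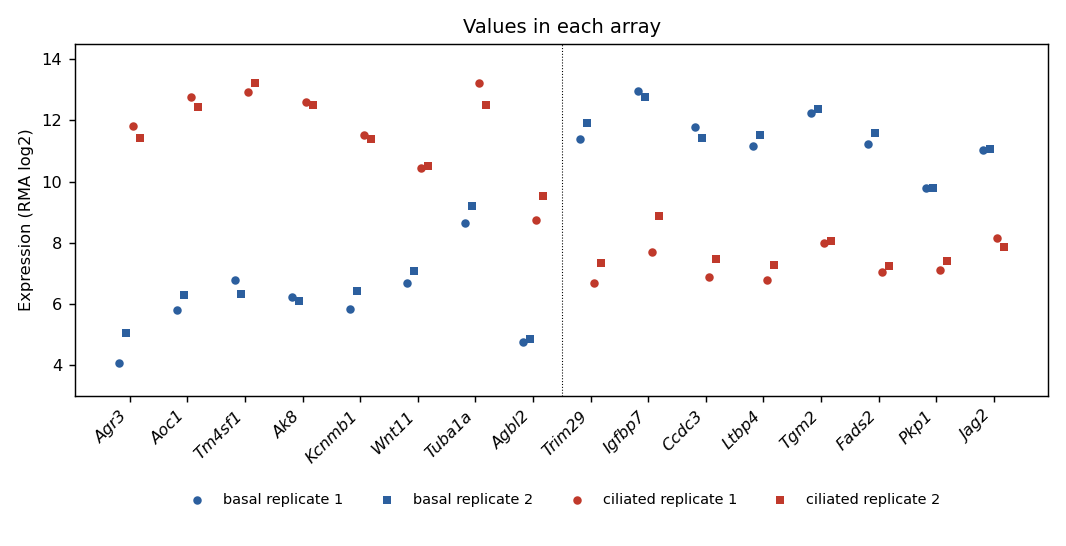
Log2 level of 16 genes in each of the 4 arrays, basal in blue and ciliated in red, with circles for replicate 1 and squares for replicate 2. Left of the dotted line the ciliated arrays lie above the basal arrays (Agr3 at 11.83 and 11.42 against 4.07 and 5.07), and right of it they lie below (Trim29 at 6.69 and 7.35 against 11.39 and 11.93), with no overlap in any of the 16.

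Genes for proteins inside the doublet microtubules were higher almost as a block. The microtubule inner proteins and tektins line the lumen of the doublets and stabilise them against the force of beating. Of 22 measured members 21 were called higher and 0 lower, and all 21 in every fit that left out 1 array, against 9.29% of all genes called higher. The median difference was 3.32. Cfap52 had levels of 6.40 and 6.40 in basal and of 11.81 and 12.17 in ciliated cells, a difference of 5.59 ± 0.20. Enkur, known in mouse and human for its part in setting left-right asymmetry, had levels of 4.78 and 5.52 against 10.42 and 10.08. The smallest called difference of the list was that of Tekt3, with 5.39 and 5.83 against 6.90 and 6.71 (1.19 ± 0.19, adjusted p = 0.0047).

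The nexin-dynein regulatory complex, the link between neighbouring doublets that governs the dyneins, went the same way in full. All 13 measured members were called higher, in every fit that left out 1 array, with a median difference of 4.86. Tcte1 had levels of 6.04 and 6.32 in basal and of 11.03 and 11.30 in ciliated cells, a difference of 4.98 ± 0.19. Iqcg had 5.30 and 5.49 against 10.49 and 10.54 (5.12 ± 0.16), and Fbxl13 4.95 and 5.23 against 10.08 and 10.10. The basal and ciliated arrays of these genes lay about 5 units apart. The smallest difference was that of Iqcd, 1.52 ± 0.19.

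Most of the tubulins, the building blocks of the microtubules, were not called. Of 17 measured genes 2 were called higher (11.8%) and 3 lower (17.6%), against 9.29% and 8.28% of all genes. The other 12 were not called, and the median difference was −0.25. Tuba1a, an alpha tubulin, had levels of 8.65 and 9.22 in basal and of 13.23 and 12.49 in ciliated cells, a difference of 3.93 ± 0.29. Tubb4b, the beta tubulin best known from cilia, had 11.23 and 11.59 in basal and 12.76 and 12.53 in ciliated cells, a difference of 1.23 ± 0.18. Both rose without overlap, while 2 other beta tubulins were lower. Tubb5 had levels of 10.78 and 11.78 in basal and of 9.12 and 8.70 in ciliated cells (−2.37 ± 0.32), and Tubb6 had 8.93 and 8.73 against 6.97 and 7.46 (−1.61 ± 0.23). The other gene called lower, the gamma tubulin gene Tubg2 (−0.57 ± 0.15), was called in none of the 6 fits that left out 1 array. Tubulin genes are closely alike in sequence, and cross-hybridisation between them was not tested.

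Enzymes that modify tubulin after translation were partly higher. Axonemal tubulin carries chains of glutamate or glycine, added by ligases of the Ttll family and trimmed by carboxypeptidases of the Agbl family. Of 25 measured genes of the list 12 were called higher and 2 lower (1 lower without ciliated replicate 2), with a median difference of 0.54. The carboxypeptidase gene Agbl2 had levels of 4.77 and 4.87 in basal and of 8.74 and 9.55 in ciliated cells, a difference of 4.33 ± 0.27. Agbl4 had 4.46 and 5.07 against 8.40 and 8.91 (3.89 ± 0.27). The glutamylase gene Ttll6 had levels of 5.22 and 6.16 in basal and of 8.96 and 9.47 in ciliated cells, and Ttll9 6.49 and 6.49 against 9.20 and 9.28. Genes that add and genes that trim the chains were thus higher together. Hdac6, which encodes a tubulin deacetylase, went the other way with 8.77 and 8.60 in basal and 7.63 and 7.32 in ciliated cells (−1.21 ± 0.18).

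Kinesins, the motors that walk along microtubules, gave different counts by the place where they work. All 9 measured ciliary kinesin genes were called higher, with a median difference of 2.07. Of these 8 were called in every fit that left out 1 array, and Kif17 (0.62 ± 0.16) was called in 1 of the 6, the fit without basal replicate 2. Kif9, a motor of the central pair, had levels of 6.20 and 6.51 in basal and of 10.67 and 11.18 in ciliated cells, a difference of 4.57 ± 0.21. Kif19a, which in mouse limits the length of cilia, had 6.83 and 7.27 against 11.17 and 11.41 (4.24 ± 0.28). The anterograde transport motors Kif3a and Kif3b were higher by 2.07 ± 0.22 and 1.27 ± 0.17. Of 11 mitotic kinesins 0 were called higher and 3 lower, with a median difference of −0.50. The 3 were Kif18b at −0.97 ± 0.24, Kif11 at −0.90 ± 0.21 and Kif20a at −0.87 ± 0.18, and 1 gene was left when ciliated replicate 1 was omitted and 0 when ciliated replicate 2 was. The call of Kif18b also ended without basal replicate 2 and that of Kif11 without basal replicate 1. Of 19 other kinesins 4 were called higher (2 without basal replicate 2 or ciliated replicate 1, and 1 without ciliated replicate 2) and 2 lower (1 without basal replicate 1 or ciliated replicate 1, and 0 without ciliated replicate 2).

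**Figure D3:**
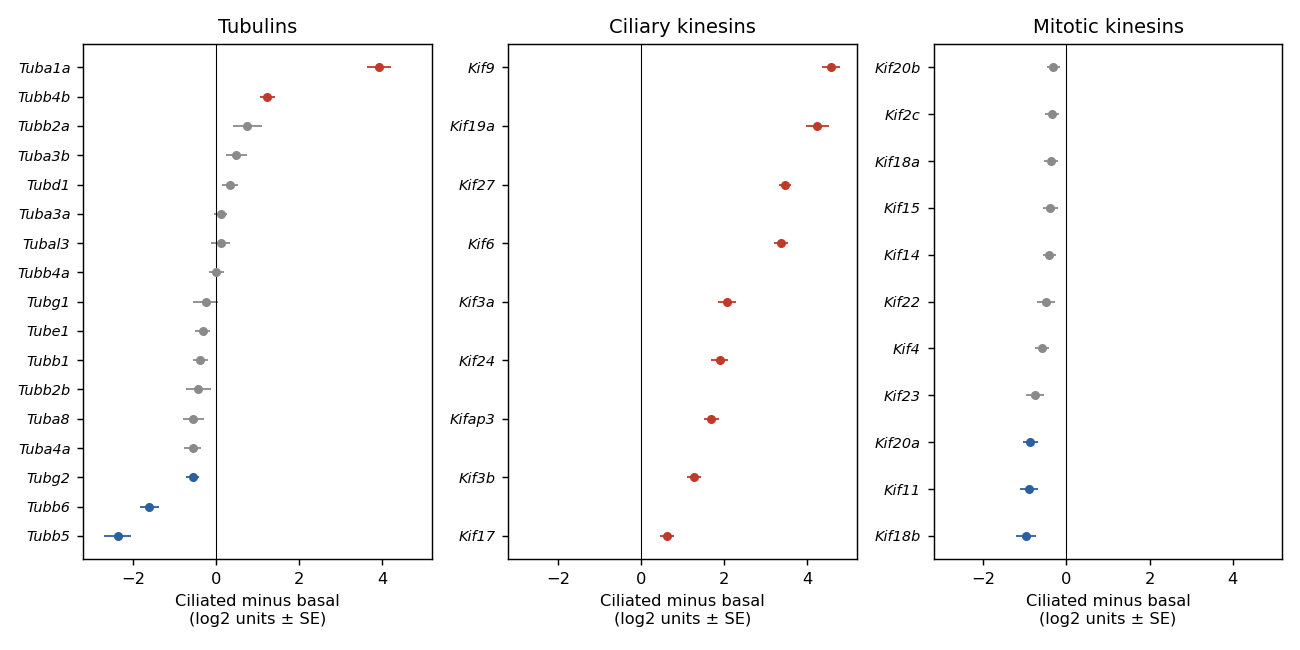
Log2 difference, ciliated minus basal, with its standard error, for 17 tubulins, 9 ciliary kinesins and 11 mitotic kinesins, in red where called higher, in blue where called lower and in grey where not called. All 9 ciliary kinesins lie right of 0, the 11 mitotic kinesins lie left of it, and the tubulins fall on both sides, from Tubb5 at −2.37 to Tuba1a at 3.93.

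Genes of the centriole and the basal body were partly higher. Of 41 measured members 19 were called higher and 1 lower, with a median difference of 0.64. The calcium-binding centrin gene Cetn4 had levels of 7.61 and 7.91 in basal and of 11.27 and 10.83 in ciliated cells, a difference of 3.29 ± 0.20. Dzip1l, a transition zone protein, was higher by 3.10 ± 0.20, and Cep83, which belongs to the distal appendages that dock the centriole at the membrane, had 6.81 and 6.66 against 9.71 and 9.55 (2.89 ± 0.18). Ccdc67, also known as Deup1 and part of the deuterosome on which multiciliated cells make centrioles, had levels of 6.03 and 6.19 in basal and of 8.81 and 8.89 in ciliated cells (2.74 ± 0.16). The kinase gene Nek2, known for parting centrosomes, had 6.53 and 6.63 in basal and 9.24 and 9.43 in ciliated cells (2.75 ± 0.15). Cep192, which recruits pericentriolar material to spindle poles, was the 1 gene called lower (−0.75 ± 0.17), and its call ended without basal replicate 1, without ciliated replicate 1 or without ciliated replicate 2.

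Enzymes that pass phosphate between nucleotides supply ATP along the cilium. Of 19 measured phosphotransfer genes 6 were called higher, all 6 in every fit that left out 1 array, and 0 lower (3 lower without basal replicate 1), while the median of the list was −0.09. The 6 were far apart from the rest. Ak8 had levels of 6.24 and 6.08 in basal and of 12.59 and 12.51 in ciliated cells, a difference of 6.38 ± 0.19. Ak7, another adenylate kinase, had 5.82 and 6.04 against 11.88 and 11.87 (5.94 ± 0.20), and Nme5, of the nucleoside diphosphate kinase family, had 6.65 and 7.30 against 12.11 and 11.87 (5.01 ± 0.24). The creatine kinase gene Ckb had levels of 7.90 and 8.24 in basal and of 10.95 and 11.88 in ciliated cells, a difference of 3.34 ± 0.30.

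Cyclic AMP acts through protein kinase A, which anchoring proteins hold in place, and speeds ciliary beat. Of 45 measured genes of this list 8 were called higher (17.8%) and 5 lower (11.1%), against 9.29% and 8.28% of all genes. The median difference was 0.08. Those called lower were 3 without basal replicate 1, 3 when ciliated replicate 1 was omitted and 2 when ciliated replicate 2 was. The largest differences on the higher side were those of Spa17, Akap14 and Ropn1l. Akap3 (0.18 ± 0.17), Akap4 (0.08 ± 0.18) and Ropn1 (0.10 ± 0.17) were not called. Spa17 had levels of 7.49 and 7.30 in basal and of 11.51 and 11.46 in ciliated cells (4.09 ± 0.19), Akap14 had 5.82 and 5.87 against 8.75 and 9.23 (3.15 ± 0.23), and Ropn1l had 6.67 and 6.35 against 9.18 and 9.44 (2.80 ± 0.18). On the lower side, the phosphodiesterase gene Pde7a had levels of 9.82 and 9.92 in basal and of 7.84 and 7.78 in ciliated cells (−2.06 ± 0.20).

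Planar cell polarity orients the cilia in 1 direction. Of 21 measured genes 4 were called higher (19%) and 3 lower (14.3%), against 9.29% and 8.28% of all genes. The median difference was −0.14. The effector genes Intu and Wdpcp, known for basal body docking, were higher. Intu had 6.60 and 6.42 in basal and 8.95 and 9.08 in ciliated cells (2.51 ± 0.16), and Wdpcp 7.39 and 7.23 against 9.04 and 9.10 (1.77 ± 0.15). The core gene Prickle2 was also higher, with 5.46 and 5.47 against 7.99 and 7.61 (2.34 ± 0.18). Of the core membrane proteins, Celsr2 had 9.36 and 9.02 in basal and 7.33 and 7.20 in ciliated cells (−1.93 ± 0.17), and Vangl2 had 8.79 and 8.43 against 7.17 and 7.16 (−1.44 ± 0.19).

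RFX factors switch on ciliary genes through a palindromic promoter element, the X-box. Rfx2 had levels of 8.89 and 9.05 in basal and of 10.42 and 10.89 in ciliated cells (1.69 ± 0.21). A strict form of the element, GTTNCC and its reverse complement GGNAAC parted by any 2 bases, which reads the same on both strands, was searched in RefSeq promoters of mouse assembly GRCm38.p6, each of 300 bases with 250 before the gene start. It was found in 34 of 1493 genes called higher (2.28%, 95% exact binomial interval 1.58 to 3.17), in 2 of 1297 called lower (0.154%, 0.0187 to 0.556) and in 54 of 12826 not called (0.421%). Of all 32851 RefSeq promoters, 148 held it (0.451%). Each interval covers counting error only, and genes are not replicates. The classes come from the calls themselves, and a difference between their shares was not tested. A stricter search with GTTGCC as the left arm, whose matches are a subset of these, found 1.74% of higher, 0.0771% of lower and 0.249% of the genes not called. The 4 windows below are a choice from 18 genes called higher whose window could be printed. Iqca, Ccdc151 and Bbs7 stand for different ciliary parts, and Tbcel is related to a tubulin-folding factor. Genes not shown include Mfsd4b1 (2.68) and Chn1 (2.57), with larger differences than Bbs7 and Tbcel, so the 4 do not represent the 18. The capitals mark the X-box match, with 20 bases on each side, 5′ to 3′ on the strand of the gene.
Iqca, minus strand, chr1:90153503-90153556: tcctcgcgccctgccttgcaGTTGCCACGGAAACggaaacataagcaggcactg
Ccdc151, minus strand, chr9:22002635-22002688: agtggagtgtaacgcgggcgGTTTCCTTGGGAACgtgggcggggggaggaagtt
Bbs7, minus strand, chr3:36613477-36613530: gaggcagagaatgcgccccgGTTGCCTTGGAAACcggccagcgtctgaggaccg
Tbcel, minus strand, chr9:42472319-42472372: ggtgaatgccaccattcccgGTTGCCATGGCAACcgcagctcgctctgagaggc

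Counted from the gene start, the match began at −100 in Iqca, −34 in Ccdc151, −121 in Bbs7 and −114 in Tbcel. Iqca, of the nexin-dynein regulatory complex, had levels of 5.76 and 6.02 in basal and of 11.08 and 10.45 in ciliated cells (4.87 ± 0.23). Ccdc151, of the docking complex of the outer dynein arms, had 6.13 and 6.49 against 8.78 and 9.43 (2.79 ± 0.25). Bbs7, a subunit of the BBSome coat that carries membrane proteins in and out of cilia, had 6.84 and 6.80 against 9.25 and 9.45 (2.53 ± 0.17). Tbcel, a relative of the tubulin-folding cofactor E, had 8.79 and 8.91 against 10.44 and 10.80 (1.77 ± 0.20). In all 4 genes both ciliated arrays lay above both basal arrays. A match describes the letters of a promoter and does not show that a factor binds there.

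Precursors of microRNAs were also on the arrays, where a row reads the precursor locus and not the mature strand. The miR-34 and miR-449 families are known to promote multiciliogenesis and share 1 seed, the bases that pair with target transcripts. The miR-19 microRNAs belong to the cluster often named after miR-17 and miR-92a, which is known to promote proliferation. The mature sequences from RefSeq are shown for these 2 groups, with the seed (bases 2 to 8) in capitals.
miR-34b-5p: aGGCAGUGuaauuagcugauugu
miR-34a-5p: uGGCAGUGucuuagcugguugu
miR-449a-5p: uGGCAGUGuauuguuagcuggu
miR-449c-5p: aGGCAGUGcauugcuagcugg
miR-19a-3p: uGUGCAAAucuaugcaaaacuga
miR-19b-3p: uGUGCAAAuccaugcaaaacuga

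Of 291 microRNA genes measured, 4 were called higher (1.37%) and 2 lower (0.687%), smaller shares than among all genes (9.29% and 8.28%), with a median difference of −0.018. Mir34b had levels of 5.19 and 4.96 in basal and of 6.11 and 6.04 in ciliated cells, a difference of 0.996 ± 0.158 (adjusted p = 0.0042). The other 3 called higher were Mir92b (0.67 ± 0.15), Mir30d (0.61 ± 0.16) and Mir330 (0.85 ± 0.23), called in 4, 0 and 1 of the 6 fits that left out an array. Genes with the seed of Mir34b did not pass: the difference was 0.17 for Mir34c (adjusted p = 0.55), −0.07 for Mir34a, −0.18 for Mir449a and −0.11 for Mir449c. The 2 called lower share the other seed, and Mir19b-2, with the same seed, did not pass (−0.03 ± 0.15, adjusted p = 0.94). Other genes of the cluster described above were not called either. Their differences were −0.37 ± 0.21 for Mir17, −0.57 ± 0.31 for Mir20a, −1.33 ± 0.46 for Mir18 (adjusted p = 0.099) and −0.33 ± 0.34 for Mir17hg. Mir19a had levels of 5.32 and 4.23 in basal and of 3.59 and 3.31 in ciliated cells (−1.33 ± 0.33, adjusted p = 0.031), and Mir19b-1 had 5.83 and 4.72 against 3.92 and 4.04 (−1.29 ± 0.33, adjusted p = 0.034). Mir19a was not called without ciliated replicate 1 or without ciliated replicate 2, and Mir19b-1 kept its call in 2 of the 6 fits.

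Genes with the largest differences on the lower side had varied roles. Trim29, a ubiquitin ligase of stratified epithelia, had levels of 11.39 and 11.93 in basal and of 6.69 and 7.35 in ciliated cells, a difference of −4.64 ± 0.29. Tgm2, which encodes a transglutaminase that cross-links proteins, had 12.26 and 12.39 against 8.01 and 8.06 (−4.29 ± 0.16). Fads2, which encodes the delta-6 desaturase of polyunsaturated fatty acids, had 11.24 and 11.58 against 7.05 and 7.23 (−4.27 ± 0.18). The ciliated arrays of all 3 lay at least 4 units below the basal arrays. Ccdc3, a secreted coiled-coil protein, differed by −4.43, Vsnl1, a neuronal calcium sensor, by −4.44, and Serpinb5, a serpin known as maspin, by −4.32.

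Keratins form the intermediate filaments. Of 98 keratin and keratin-associated genes 3 were called higher (3.06%) and 8 lower (8.16%), against 9.29% and 8.28% of all genes, so the lower share was near that of all genes. Among those called lower were keratins known from basal and stratified epithelia, with Krt6a at 8.18 and 7.42 in basal and 5.71 and 5.75 in ciliated cells (−2.07 ± 0.26) and a difference of −3.19 ± 0.19 for Krt15. Krt80 was higher, at 8.11 and 8.27 against 9.94 and 10.01 (1.78 ± 0.25). The pair known from simple epithelia was also higher, Krt8 by 0.91 ± 0.17 and Krt18 by 1.33 ± 0.23. The call of Krt8 ended without ciliated replicate 1 and that of Krt18 without ciliated replicate 2.

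Desmosomes are the junctions to which keratins attach. Of 14 measured genes 6 were called lower and 0 higher (1 higher without basal replicate 1), against 8.28% of all genes called lower, and the median was −0.56. The desmocollin gene Dsc3 had a difference of −3.54 ± 0.42, and Dsc2 had levels of 9.64 and 9.11 in basal and of 7.27 and 7.12 in ciliated cells (−2.18 ± 0.22). The plakophilin gene Pkp1 had 9.79 and 9.81 against 7.12 and 7.39 (−2.54 ± 0.16), and Dsg3 had 7.01 and 7.33 against 4.98 and 5.39 (−1.99 ± 0.22). The lowest basal array lay above the highest ciliated array in each of these genes. Of 26 integrins, the receptors for the basement membrane and other matrix, 9 were called lower and 1 higher, with a median of −0.22. The lower count was 4 without either ciliated array. Itgb4, of the hemidesmosome, had 11.73 and 11.80 against 9.99 and 10.04 (−1.75 ± 0.18), and Itgb5 had 10.40 and 10.72 against 8.89 and 8.78 (−1.73 ± 0.18). Itgal, the alpha chain of a leukocyte integrin, was the 1 called higher, with 6.29 and 6.16 in basal and 8.28 and 7.77 in ciliated cells (1.80 ± 0.21). Of the 13 leukocyte markers 1 was called higher (0 without ciliated replicate 1) and 4 lower (2 without basal replicate 1 or without ciliated replicate 2), with a median difference of −0.20. The 4 called lower were Cd74 (−2.89 ± 0.45), Laptm5 (−1.34 ± 0.16), Fcer1g (−1.13 ± 0.25) and Tyrobp (−0.90 ± 0.24). The call of Fcer1g ended without basal replicate 1 or ciliated replicate 2, and that of Tyrobp without any 1 of the basal or ciliated arrays. The summed level of the 13 markers on the log2 scale was 12.23 and 12.47 in basal and 13.70 and 13.21 in ciliated cells. In ciliated cells most of it came from Lyz2, the lysozyme gene called higher. Lyz2 stood at 10.99 and 11.88 in basal and at 13.57 and 13.07 in ciliated cells. None of the 13 stood at 0, and their part in the result of Itgal was not tested.

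Of 36 tight and apical junction genes 4 were called higher and 4 lower (11.1% each way, near the shares of all genes), with a median of 0.08, and 2 higher and 1 lower without either of the ciliated arrays. Jam3, a junctional adhesion molecule, had levels of 4.86 and 5.17 in basal and of 8.41 and 8.51 in ciliated cells (3.45 ± 0.17), and Jam2 had 6.23 and 5.91 against 7.51 and 7.54 (1.46 ± 0.18). Of 30 contractile and cortical cytoskeleton genes 4 were called higher (13.3%) and 5 lower (16.7%), against 9.29% and 8.28% of all genes. Without basal replicate 1 the higher count was 8, without ciliated replicate 2 it was 2, and the lower count was 3 without either ciliated array. Members of the group that ties actin to the membrane differed in direction. Msn, moesin, had levels of 10.02 and 9.67 in basal and of 7.09 and 7.07 in ciliated cells (−2.76 ± 0.20). Ezr, its relative ezrin, had 11.68 and 11.46 against 12.72 and 12.83 (1.21 ± 0.21), a call that ended without ciliated replicate 2.

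Growth factor receptors and ligands were on the lower side. Of 35 measured genes 12 were called lower, 9 of them in every fit that left out 1 array, and 0 higher (2 higher without basal replicate 1), with a median of −0.16. Fgfr2, a receptor of fibroblast growth factors, had levels of 11.55 and 11.41 in basal and of 9.05 and 9.20 in ciliated cells (−2.36 ± 0.17). The hepatocyte growth factor receptor gene Met had a difference of −1.86 ± 0.20, and the epidermal growth factor receptor gene Egfr had 10.51 and 9.79 against 8.36 and 8.66 (−1.64 ± 0.26). Among ligands, Vegfa, which drives vessel growth, had 11.47 and 11.12 in basal and 8.90 and 8.79 in ciliated cells (−2.45 ± 0.17), and the neuregulin gene Nrg2 had 8.91 and 8.97 against 6.85 and 6.68 (−2.18 ± 0.16). Every receptor and ligand named here had both ciliated arrays below both basal arrays, while 53% of all genes had no overlap either way.

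Of 15 genes of the insulin-like growth factor axis 1 was called higher and 4 lower (2 lower without either ciliated array), with a median of −0.24. The shares were 6.67% higher and 26.7% lower, against 9.29% and 8.28% of all genes. The binding proteins split. Igfbp7 had levels of 12.96 and 12.78 in basal and of 7.72 and 8.87 in ciliated cells (−4.58 ± 0.34), and Igfbp3 had 10.36 and 10.50 against 6.83 and 7.34 (−3.35 ± 0.23). Igfbp5 was higher, with 10.66 and 11.07 in basal and 12.40 and 12.55 in ciliated cells (1.61 ± 0.24).

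The BMP and TGF-beta pathway had 19 of 46 measured genes called lower and 3 higher, with a median of −0.34. The lower count was 8 when ciliated replicate 1 was omitted and 7 when ciliated replicate 2 was, and the higher count was 1 without basal replicate 1 and 0 without either ciliated array. Ltbp4, which stores latent TGF-beta in the matrix, had levels of 11.15 and 11.53 in basal and of 6.80 and 7.28 in ciliated cells (−4.30 ± 0.22). The ligand gene Tgfb1 had 9.48 and 9.20 against 6.78 and 7.24 (−2.33 ± 0.23), and Bmp7 had 9.81 and 9.26 against 7.50 and 7.67 (−1.95 ± 0.23). The 3 called higher were the receptor genes Acvr1b (0.74 ± 0.16), Tgfbr2 (0.98 ± 0.22) and Tgfbr3 (1.03 ± 0.26). The calls of Acvr1b and Tgfbr2 ended without basal replicate 1 or either ciliated array, and that of Tgfbr3 without basal replicate 2 or any 1 of the ciliated and club arrays. The inhibitory Smad6 was lower by less, with 8.25 and 8.16 in basal and 7.26 and 7.06 in ciliated cells (−1.05 ± 0.16).

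Notch signalling steers airway progenitors away from the ciliated fate. Of 32 measured genes 4 were called higher (12.5%) and 5 lower (15.6%), against 9.29% and 8.28% of all genes, with a median of −0.04. The ligand genes Jag2 and Dll1 were lower. Jag2 had levels of 11.02 and 11.06 in basal and of 8.14 and 7.87 in ciliated cells (−3.03 ± 0.22), and Dll1 had 9.92 and 8.95 against 6.59 and 6.69 (−2.80 ± 0.30). The receptor gene Notch1 had 10.62 and 10.54 against 8.99 and 8.85 (−1.65 ± 0.15). Notch2, another receptor gene, was higher, with 9.31 and 9.36 in basal and 10.01 and 9.94 in ciliated cells (0.64 ± 0.15), and its call ended without any 1 of basal replicate 1, ciliated replicate 1 and ciliated replicate 2. Lfng, a glycosyltransferase that tunes the receptor, was higher, with 8.79 and 9.48 in basal and 11.40 and 11.61 in ciliated cells (2.37 ± 0.24). Dtx1, which encodes a regulator of Notch, had 6.86 and 7.30 against 9.23 and 9.36 (2.21 ± 0.19), and the target gene Hes1 had 10.11 and 10.05 against 11.56 and 11.84 (1.62 ± 0.21).

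Of 53 Wnt pathway genes 3 were called higher and 10 lower (6 lower without ciliated replicate 1), with a median of −0.14. The shares were 5.66% higher and 18.9% lower, against 9.29% and 8.28% of all genes. The ligand gene Wnt11, known for signalling without beta-catenin, had levels of 6.70 and 7.07 in basal and of 10.44 and 10.53 in ciliated cells (3.60 ± 0.17). Wnt5a, of the same kind, had 5.14 and 5.52 against 7.22 and 7.46 (2.01 ± 0.19). The differences of Wnt10a and Wnt4, other ligand genes, were −1.75 ± 0.21 and −1.51 ± 0.19. Among the Frizzled receptors, Fzd8 was lower, with 9.79 and 9.94 in basal and 7.90 and 7.76 in ciliated cells (−2.03 ± 0.15), and Fzd4 was higher, with 6.89 and 6.58 against 8.23 and 7.93 (1.34 ± 0.19). Of 15 hedgehog pathway genes 1 was called higher (0 without basal replicate 2 or without any 1 of the ciliated or club arrays) and 5 lower (2 when ciliated replicate 1 was omitted and 3 when ciliated replicate 2 was). The hedgehog shares were 6.67% higher and 33.3% lower. The signal transducer gene Smo had 9.94 and 10.21 in basal and 8.61 and 8.65 in ciliated cells (−1.45 ± 0.18). The co-receptor gene Boc had 9.87 and 9.65 against 7.72 and 7.74 (−2.03 ± 0.18).

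Guidance genes, which steer growing axons and sort cells at tissue borders, held 24 of 59 measured members called lower and 3 higher, with a median of −0.41. Of the lower calls 13 held in every fit that left out 1 array, and the lower count was 14 without ciliated replicate 2. Unc5a, a netrin receptor, had levels of 9.80 and 10.26 in basal and of 6.58 and 6.60 in ciliated cells (−3.44 ± 0.21). The Slit receptor gene Robo1 had a difference of −2.55 ± 0.18, and the ephrin receptor gene Ephb2 had 10.20 and 10.23 against 8.04 and 7.99 (−2.20 ± 0.15). Plxnb3, a semaphorin receptor, was higher, with 5.82 and 5.86 in basal and 7.53 and 7.79 in ciliated cells (1.82 ± 0.16).

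**Figure D4:**
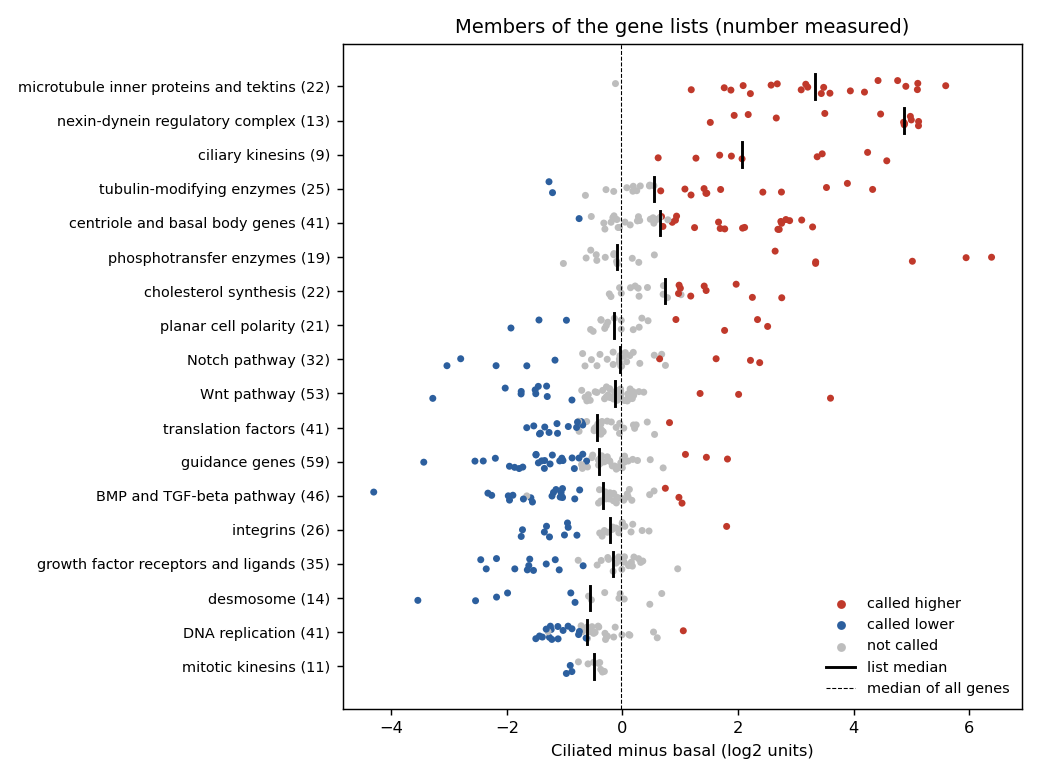
Log2 difference, ciliated minus basal, of each measured member of 18 gene lists, in red where called higher, in blue where called lower and in grey where not called, with a black bar at each list median and a dashed line at the median of all genes (−0.02). The lists of doublet, nexin link and ciliary kinesin genes lie almost wholly right of 0, with medians of 3.32, 4.86 and 2.07, and most signalling lists scatter about 0 with a tail to the left.

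Transcription factors of airway epithelium split 6 higher (12%) to 11 lower (22%) among 50 measured, against 9.29% and 8.28% of all genes. Without ciliated replicate 1 the counts were 3 higher and 6 lower, and without ciliated replicate 2 they were 3 and 3. Snai2, known from the epithelial-mesenchymal transition, had levels of 9.95 and 9.38 in basal and of 6.03 and 6.79 in ciliated cells (−3.26 ± 0.29). Hopx, an atypical homeodomain factor, was higher, with 7.29 and 7.91 in basal and 9.74 and 10.06 in ciliated cells (2.30 ± 0.23). Foxa2, a pioneer factor of gut and airway endoderm, had 7.02 and 7.18 against 8.15 and 8.17 (1.06 ± 0.16).

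Immediate early genes, which cells switch on within minutes of a stimulus such as dissociation, depended on which basal array was used. With all arrays, 1 of 21 measured was called higher and 1 lower, with a median of 0.51. Without basal replicate 1 the higher count was 9, and without basal replicate 2 it was 0. The median of ciliated minus basal replicate 1 was 0.178 and that of ciliated minus basal replicate 2 was 0.668. Basal replicate 2 was lower than basal replicate 1 in 16 of the 21 genes, with a median difference of −0.36 between the arrays against 0.04 over all genes. Egr2 had levels of 12.04 in basal replicate 1, 9.61 in basal replicate 2 and 11.70 and 12.42 in the ciliated arrays, so only basal replicate 2 stood low. Klf2, the 1 gene called higher, had 8.42 and 8.29 in basal and 9.55 and 10.65 in ciliated cells (1.74 ± 0.39), and its call ended without basal replicate 2 or without ciliated replicate 2. Myc, which drives growth and division, was the 1 gene called lower, with 12.36 and 10.85 in basal and 7.87 and 8.72 in ciliated cells (−3.31 ± 0.51).

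**Figure D5:**
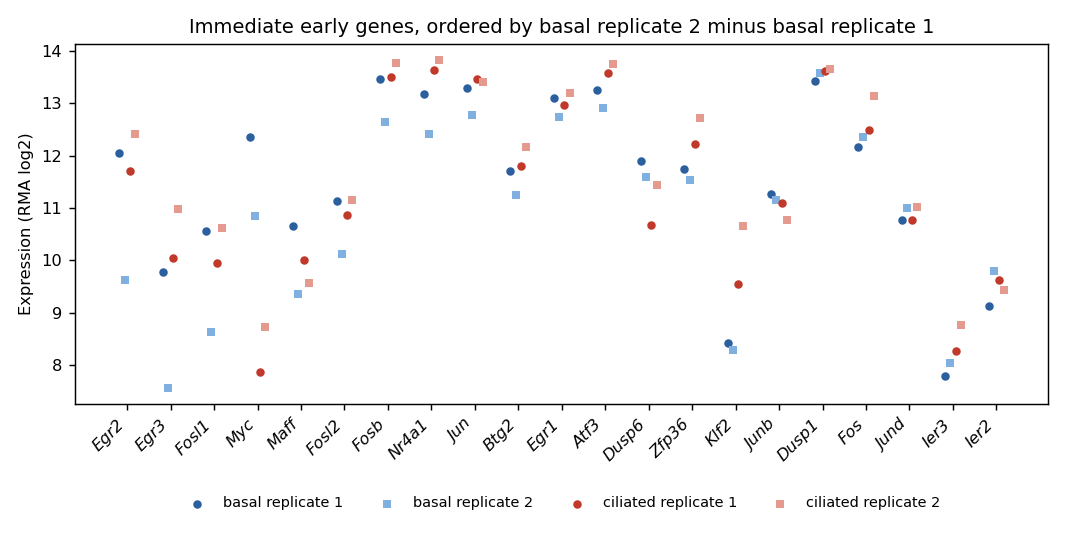
Log2 level of 21 immediate early genes in each of the 4 arrays, ordered by basal replicate 2 minus basal replicate 1, with basal arrays in blue and ciliated arrays in red. At the left, basal replicate 2 stands below the other 3 arrays for Egr2 (9.61) and Egr3 (7.56), and for Myc both basal arrays stand above both ciliated arrays.

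DNA replication genes were on the lower side: 16 of 41 measured were called lower and 1 higher, with a median of −0.61. The lower count depended on the arrays, with 8 without basal replicate 2, 6 when ciliated replicate 1 was omitted and 3 when ciliated replicate 2 was. The 3 that held in every such fit were Pole2, Rrm1 and Rfc4. Pole2, a subunit of DNA polymerase epsilon, had levels of 6.69 and 7.14 in basal and of 5.52 and 5.54 in ciliated cells (−1.39 ± 0.20), and the ribonucleotide reductase gene Rrm1 had 8.67 and 9.05 against 7.56 and 7.66 (−1.25 ± 0.19). Mcm2, of the replicative helicase, had 8.27 and 9.06 in basal and 7.21 and 7.24 in ciliated cells (−1.43 ± 0.27), and its call ended without ciliated replicate 1 or without ciliated replicate 2. The 1 called higher, Rfc2 (1.05 ± 0.28), was called in 1 of the 6 fits that left out an array. Of 20 targets of p53, the damage-response factor, 2 were called higher (10%) and 5 lower (25%), against 9.29% and 8.28% of all genes. Without basal replicate 1 the higher count was 5, without either ciliated array it was 1, and the lower count was 2 without ciliated replicate 1. Sesn1, which encodes a stress sensor, had 9.38 and 9.91 in basal and 7.05 and 7.28 in ciliated cells (−2.48 ± 0.21).

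Translation factors had 14 of 41 measured genes called lower and 1 higher, with a median of −0.44, and 7 called lower without either ciliated array. Eif3k, Eif3f and Eif3h encode subunits of the initiation complex eIF3. Eif3k had levels of 10.82 and 11.25 in basal and of 9.42 and 9.59 in ciliated cells (−1.53 ± 0.19), Eif3f had 11.92 and 12.05 against 10.84 and 10.26 (−1.43 ± 0.22), and Eif3h had 11.89 and 11.96 against 10.68 and 10.63 (−1.27 ± 0.15). The 1 called higher was Eif4g3 (0.81 ± 0.18), called in 3 of the 6 fits that left out an array. Of 26 ribosome biogenesis genes 5 were called lower and 0 higher, with a median of −0.48. Their lower count was 8 without either basal array, 3 when ciliated replicate 1 was omitted and 1 when ciliated replicate 2 was. Mybbp1a, a nucleolar protein, had 9.35 and 9.50 in basal and 8.41 and 8.06 in ciliated cells (−1.18 ± 0.19) and was called in every fit.

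Cholesterol synthesis was on the higher side, with 9 of 22 measured genes called higher and 0 lower and a median of 0.74. The count was 3 without ciliated replicate 2. Sqle, squalene epoxidase, had levels of 7.17 and 7.19 in basal and of 10.13 and 9.74 in ciliated cells (2.76 ± 0.22), and the sterol demethylation enzyme gene Msmo1 had 7.98 and 8.26 against 9.94 and 10.23 (1.97 ± 0.18). Fatty acid oxidation had 4 of 20 genes called higher (Acsl1, Acadm, Acaa2 and Etfa) and 0 lower, but 1 when ciliated replicate 1 was omitted and 0 when ciliated replicate 2 was.

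Of 20 glycolysis genes 2 were called higher and 2 lower (10% each way, near the 9.29% and 8.28% of all genes). The lower count was 1 without basal replicate 1, 4 without basal replicate 2 and 0 without either ciliated array. The subunits of lactate dehydrogenase parted. Ldhb, the heart type, had levels of 7.49 and 8.05 in basal and of 9.76 and 10.35 in ciliated cells (2.28 ± 0.32). Ldha, the muscle type, had 12.28 and 12.42 against 11.68 and 11.57 (−0.73 ± 0.15, adjusted p = 0.015), and its call ended without ciliated replicate 1 or without ciliated replicate 2. The lactate carrier gene Slc16a3 was higher, with 6.88 and 6.51 in basal and 8.95 and 8.96 in ciliated cells (2.26 ± 0.18). Of 29 antioxidant genes 8 were called higher and 1 lower, with 4 higher when ciliated replicate 1 was omitted and 2 when ciliated replicate 2 was. The plasma glutathione peroxidase gene Gpx3 had 5.49 and 6.10 against 7.55 and 7.45 (1.70 ± 0.22).

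Chemokine and cytokine genes had 4 of 38 members called higher and 5 lower, with a median of −0.23. The lower count was 3 without basal replicate 1, 2 when ciliated replicate 1 was omitted and 0 when ciliated replicate 2 was. The shares, 10.5% higher and 13.2% lower, were near those of all genes or above. The mucosal chemokine gene Cxcl17 was higher and had levels of 9.07 and 9.76 in basal and of 12.48 and 12.82 in ciliated cells (3.23 ± 0.25), and Ccl28 had 6.25 and 6.76 against 9.20 and 9.52 (2.85 ± 0.22). The alarmin gene Il33 had 5.09 and 5.02 in basal and 6.55 and 6.69 in ciliated cells (1.56 ± 0.21). Of 15 club cell markers 6 were called higher (2 without ciliated replicate 1) and 1 lower (2 without ciliated replicate 1), with a median difference of 0.28 and a summed level on the log2 scale of 16.005 and 16.191 in basal and of 16.82 and 16.57 in ciliated cells. None stood at 0, and their part in the chemokine values was not tested.

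Families defined by symbol alone gave a further view. Of 23 Cfap genes, named as cilia and flagella associated, 22 were called higher and 0 lower. The coiled-coil Ccdc family is a class of structure and not of function, and 46 of its 137 measured genes (33.6%) were called higher and 8 lower. The leucine-rich repeat family Lrrc had 22 of 67 higher and 3 lower, and the tetratricopeptide family Ttc 15 of 41 higher and 2 lower. All 4 shares stand above the 9.29% of all genes called higher. Carriers of the Slc families had 60 of 368 higher (16.3%) and 28 lower (7.61%). Zinc finger genes of the Zfp family had 10 of 353 higher (2.83%) and 28 lower (7.93%). In the Slc and Zfp families the lower share was near the 8.28% of all genes. Olfactory receptors had 2 of 1028 called higher, Olfr464 (1.51 ± 0.20) and Olfr45 (0.54 ± 0.15, called in none of the fits that left out 1 array), and 0 lower. Of 164 vomeronasal receptors 0 were called in limma, and 3 had an unadjusted p under 0.05.

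Markers of further cell types that the gates could hold were read in the same arrays. Among 9 myoepithelial and smooth muscle, 8 endothelial, 8 chondrocyte, 8 tuft cell and 8 neuroendocrine markers, 0 were called in either direction in limma, and 5 had an unadjusted p under 0.05. Of 13 fibroblast markers 2 were called lower, Dcn and Fbln1, with a summed level of 12.67 and 12.59 in basal and of 10.23 and 10.25 in ciliated cells. Most of the basal sum came from Dcn, with 12.30 and 12.13 in basal and 6.64 and 8.03 in ciliated cells. Dcn is also on the list of basal cell markers. The other 11 were not called, among them Col1a1 (0.13 ± 0.14), Col3a1 (−0.18 ± 0.15) and Pdgfra (−0.25 ± 0.17). Of 7 alveolar type 2 markers 1 was called higher. That gene, Sftpc, the surfactant protein C gene, had levels of 5.21 and 5.27 in basal and of 9.17 and 8.36 in ciliated cells (3.52 ± 0.26), and Etv5 was called lower by −0.83 ± 0.19 with its call ending without basal replicate 1 or without either ciliated array. None of these markers stood at 0, and the part of other cell types was not tested.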

How the data were processed

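RNA of sorted airway cells was read on arrays, labelled by the Affymetrix protocol per the labels. The submitters' processing notes name RMA, which corrects the background, quantile-normalizes and summarises probes. Neither platform nor build is given in the sources used here. The authors deposited the log2 values as a matrix of 35556 probe sets and, used here, a table with 1 log2 value per gene and array, per the file headers. The 1 line without a symbol was left out. The deposited score of enrichment per cell type and the other sheets were not used. Without detection calls no gene could be called absent, and dim genes were kept.

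The limma 3.58.1 fit, in R 4.3.3, held a mean for each cell type and all 6 arrays (residual degrees of freedom 3, prior degrees of freedom 4.297, prior SD 0.1877), with ciliated minus basal as the contrast and Benjamini-Hochberg adjustment over 20315 genes. On simulated data with this contrast and 20315 genes, 100 genes were changed by 1 or by 2 log2 units. The fit recovered 73% and 100% of them, with 14 false calls each time. Far more genes than that were called in the data, so these figures do not carry over to it. The 33 programme and 13 marker lists and the cell groups were chosen with earlier results of these data known. Of 1094 list genes 1062 were measured. Genes to name were picked by rule, and the text names only part of them, leaving out for instance Sntn (6.83 ± 0.45). The rule took the 15 largest differences each way called in every leave-one-out fit. It also took the leading called members of each list in both directions and the genes with the largest gaps between replicates. The sort antigens, the extreme markers and the leading members of symbol families called both ways completed it. Other members, Xist, H2-Ea-ps, microRNA genes and genes with an X-box were chosen after their values were seen. Promoter and microRNA sequences came from RefSeq tables (GRCm38.p6), with a promoter for 15616 measured genes. Alternatives were other normalizations, priors, weights and filters, a minimum difference, the probe set matrix and the omission of each array.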

Additional observations from a re-analysis of the deposited data

How the results depend on the processing

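None of the 225 called genes picked by the naming rule changed direction under any alternative that gave it a value. Against 3570 calls (1888 higher, 1682 lower), a test against a minimum difference of 1 log2 unit left 945, of which 685 were higher and 260 lower, because it asks for larger differences. Leaving out 1 array at a time gave 1907 to 3807 calls, with 1170 to 1906 higher and 737 to 1901 lower, and the lowest counts came without ciliated replicate 2. Of the 225 genes 58 were no longer called without that array, 46 without ciliated replicate 1, 10 without basal replicate 1 and 12 without basal replicate 2. The cause was not tested. Other normalizations gave 3672 calls with quantile normalization applied again, 48.4% of them higher, 3511 with cyclic loess, 58.0% of them higher, and 3569 with median centring, against 52.9% higher in the values as reported. The fit without club arrays gave 3264 calls, array weights 3330, a trended prior 3510, the omission of the dimmest genes 3546, and the matrix of probe sets 3671. With the replicate block 4104 genes were called. The deviations of same-numbered basal and ciliated arrays from their group means correlated at 0.052, so the numbers were not taken as a pairing. The block changed no call among the 225 genes. Of 92 list counts, 9 moved by over 1.5 times with cyclic loess, 6 with the quantile step, 6 with the block, 53 with the minimum difference, 35 without either ciliated array, 21 without basal replicate 1 and 9 without basal replicate 2. With G required in the left arm of the X-box, the share of all measured promoters that held it was 0.378% in place of 0.576%, since this form is a subset of the other. With 2 arrays in each group and no detection calls, small differences of dim genes are the least certain.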
